A study of Mus musculus with 12 samples.

Results

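The genes described here are the receptors, bridging molecules and cytoplasmic machinery with which macrophages take up other cells. A list of 38 such genes was chosen by name, and each gene is represented by its brightest probe set, the group of oligonucleotides that measures 1 gene on the array. All 38 were measured, among 19938 genes that have a probe set of a single symbol. One of them, Cd47, has 2 probe sets. Gulp1 had a mean log2 signal of 3.06, below the lower quartile of every array (3.45 to 3.57), so its values lie in the dim range.

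The study used 12 arrays in 6 groups of 2. The macrophages were elicited in the peritoneum of C57BL/6 mice with an injected irritant, thioglycollate. The mice had eaten a chow (CD) or a high-fat diet (HFD) for 12 weeks from 6 weeks of age. Macrophages of each diet were cultured without red blood cells (RBC), with RBC of chow-fed donors or with RBC of donors on the high-fat diet. They are called chow macrophages, high-fat macrophages, chow RBC and high-fat RBC below, and macrophages of both diets carry no genetic change that the labels name. All macrophages were elicited cells, so no group stands for the untouched peritoneum. The labels number the animals 1 and 2 within each group without saying whether the RBC-fed and unfed cultures of 1 diet came from the same animals, so a p-value measures the spread between these samples, which may be partly technical.

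Macrophages recognise cells to be cleared by changes on the cell surface, above all by phosphatidylserine turned to the outer leaflet of the membrane. Some receptors bind this lipid themselves, among them Timd4, Stab1, Stab2, Adgrb1 and Cd300lf. Others bind it through soluble bridges: Gas6 and protein S (Pros1) for the kinases Tyro3, Axl and Mertk, and Mfge8 for the integrins built from Itgav with Itgb3 or Itgb5. Below the membrane the adaptors Crk, Elmo and Gulp1 and the exchange factors Dock1 and Vav1 lead to Rac and other small GTPases, which shape the actin cup. Healthy red cells carry Cd47, which engages Sirpa on the macrophage and restrains uptake. Macrophages of spleen and liver clear aged red cells throughout life.

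The array medians lay between 4.84 and 4.96 on the log2 scale. The macrophage markers Cd68 (12.09 to 12.21) and Lyz2 (12.27 to 12.45) were bright on every array, and Csf1r lay between 9.77 and 10.69. Replicates correlated at 0.9942 to 0.9974 over all genes. The 2 arrays of chow macrophages without RBC stood apart from the rest, with a median correlation to the other arrays of 0.9855 and 0.9845 against 0.9903 to 0.9943 for the other arrays. Results drawn against them rest on those 2 samples. The replicates of high-fat macrophages without RBC had the widest spread, with an SD of the gap between them over genes of 0.24 log2 against 0.15 to 0.19 in the other groups. These are bulk RNA samples, so fewer cells of a type and less RNA per cell cannot be told apart.

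The largest number of engulfment genes differed between the diets of the macrophage donors when no RBC were given. Of the 38 genes, 11 were higher and 8 lower in high-fat macrophages, 50% of the list, where 13.9% of all genes were called, 8.12% higher and 5.82% lower. A gene is called here at an adjusted p below 0.05 in limma, with Benjamini-Hochberg adjustment over all 19938 genes. In chow macrophages RBC raised 9 and lowered 3 of the 38 (31.6%, against 12.7% of all genes, 8.22% raised and 4.51% lowered). In high-fat macrophages RBC raised 2 and lowered none (5.26%, against 1.08% of all genes, 0.878% raised and 0.201% lowered). Once RBC were given, 4 genes were higher and 2 lower in high-fat than in chow macrophages (15.8%, against 4.85% of all genes, 2.2% higher and 2.65% lower). The diet of the RBC donors gave no called member. In all, 20 of the 38 genes were called in at least 1 of 7 comparisons, and 18 in none. Over all genes, 20.1% were called in at least 1 of the 7. The list was chosen with earlier results of these data known, so these shares describe it and test nothing.

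**Figure D1:**
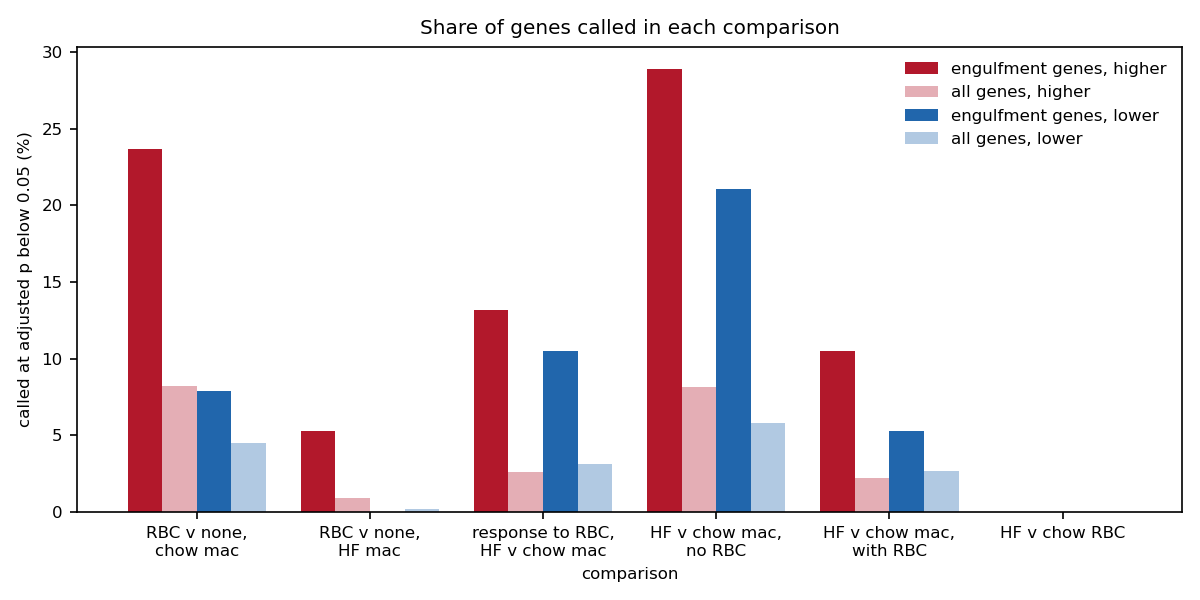
Bars give the percentage of genes called at an adjusted p below 0.05 (vertical axis) in each of 6 comparisons, for the 38 engulfment genes (solid) and all 19938 genes (pale), split by direction (mac, macrophages; HF, high-fat; v, against). The share of engulfment genes was highest between unexposed macrophages of the 2 diets, at 50% over both directions against 13.9% of all genes.

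**Figure D2:**
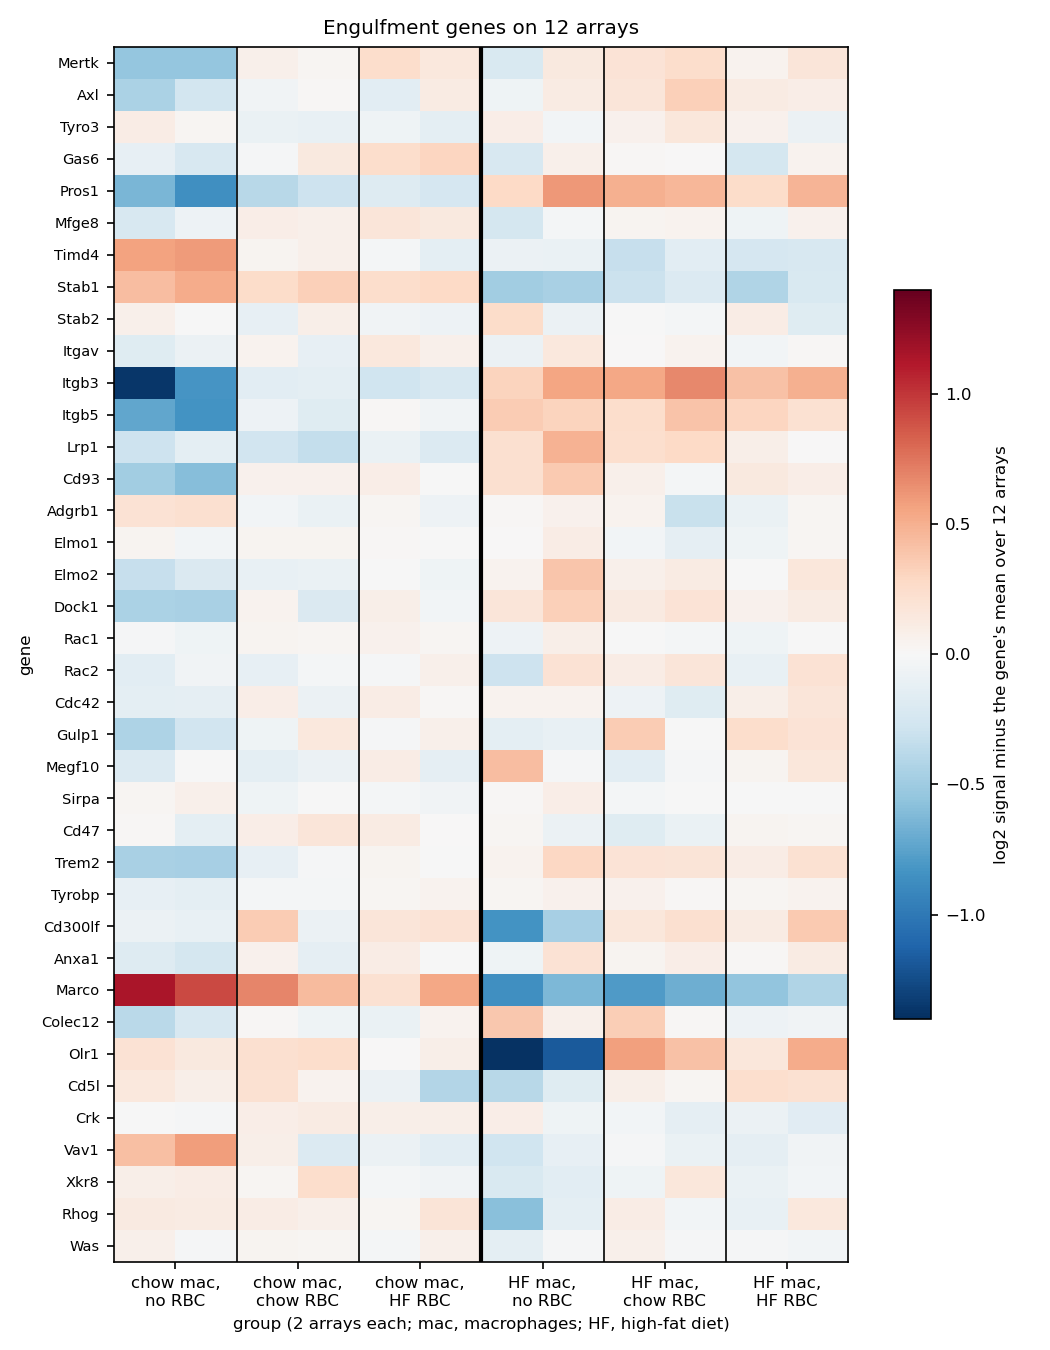
Colours give the log2 signal of each of the 38 genes (rows) on each of the 12 arrays (columns, 2 a group), minus that gene's mean over the arrays. The 2 columns of chow macrophages without RBC at the left differ from the remaining 10 in Itgb3, Itgb5, Mertk, Cd93, Trem2, Dock1, Vav1 and Timd4, and Olr1 is low only on the 2 arrays of high-fat macrophages without RBC.

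Promoter sequences are shown for 4 members because their transcripts followed different courses. Itgb5 and Mertk rose with RBC in chow macrophages, Marco was lowest in high-fat macrophages, and Olr1 rose with RBC in high-fat macrophages. Each window holds the 250 bases before the gene's start, 5′ to 3′ along the gene, from RefSeq on GRCm38.p6, with motif matches in capitals. The windows lie at chr16:33829415-33829664 (plus strand) for Itgb5, chr2:128698665-128698914 (plus) for Mertk, chr1:120505025-120505274 (minus) for Marco and chr6:129507166-129507415 (minus) for Olr1.
Itgb5: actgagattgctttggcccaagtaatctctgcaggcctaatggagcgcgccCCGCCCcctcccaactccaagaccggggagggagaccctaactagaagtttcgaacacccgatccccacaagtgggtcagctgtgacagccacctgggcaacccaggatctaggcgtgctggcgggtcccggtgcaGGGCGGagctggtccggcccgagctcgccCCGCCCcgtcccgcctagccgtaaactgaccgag
Mertk: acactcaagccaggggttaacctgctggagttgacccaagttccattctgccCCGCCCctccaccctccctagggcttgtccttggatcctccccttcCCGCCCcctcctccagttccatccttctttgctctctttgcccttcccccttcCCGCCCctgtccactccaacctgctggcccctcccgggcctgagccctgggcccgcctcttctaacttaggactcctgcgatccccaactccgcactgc
Marco: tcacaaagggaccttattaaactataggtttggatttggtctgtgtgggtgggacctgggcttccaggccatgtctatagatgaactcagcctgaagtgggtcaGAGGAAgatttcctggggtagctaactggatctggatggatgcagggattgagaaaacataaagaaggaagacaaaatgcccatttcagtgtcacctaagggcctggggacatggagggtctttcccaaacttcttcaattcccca
Olr1: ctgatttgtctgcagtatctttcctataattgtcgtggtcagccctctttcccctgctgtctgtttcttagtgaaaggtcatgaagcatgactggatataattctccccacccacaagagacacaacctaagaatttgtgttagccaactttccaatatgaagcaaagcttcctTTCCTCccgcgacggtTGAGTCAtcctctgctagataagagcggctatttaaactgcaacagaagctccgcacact
The windows of 28 of the 38 members were found in the RefSeq table. The searched motifs were the AP-1 element TGANTCA, the PU.1 core GAGGAA, the NF-kB element, the interferon response element and the GC box GGGCGG, each on both strands. The capitals in Itgb5 and Mertk mark 3 GC boxes each, a motif held by 17 of the 28 members and by 32.7% of all 32851 windows. Members were counted by gene, with a match in any window of the gene, and the percentages by single window, so the 2 are not like for like. The windows of Itgb5 (65.2% GC) and Mertk (63.6%) are richer in G and C than the median window (52.4%), whereas those of Marco (47.6%) and Olr1 (45.2%) are poorer. The capitals in Marco mark a PU.1 core that starts 146 bases before the gene, a motif found in 13 of the 28 members and 23.3% of all windows. Olr1 holds the PU.1 core on the minus strand and an AP-1 element that starts 60 bases before the gene. The AP-1 element occurred in 2 members, Olr1 and Trem2, and in 6.75% of all windows. The NF-kB element (0.356% of all windows) and the interferon response element (2.98%) had no match in the member windows. A match describes letters and is no evidence of binding.

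Macrophages of high-fat-fed and chow-fed mice were first compared without RBC. Markers of other cells also differed between these groups, as given below. High-fat macrophages had more transcript of both integrin β chains, of protein S, and of the kinases Mertk and Axl. They also had more of Trem2, Lrp1 and Cd93, and of Dock1 with its partner Elmo2. They had less of the scavenger receptors Marco, Olr1 and Stab1, of the phosphatidylserine receptors Timd4 and Cd300lf, of Cd5l, and of the signalling genes Vav1 and Rhog. The differences ran from 2.88-fold higher (Itgb3) to 3.41-fold lower (Marco). The median absolute difference was 0.33 log2 over the 38 genes and 0.14 over all genes. Each group has 2 arrays, and all folds are on the deposited log2 scale.

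Among the bridges and the kinases that bind them, Pros1 encodes protein S. Its log2 signal was 6.27 and 6.06 in chow macrophages and 7.19 and 7.52 in high-fat macrophages. The groups did not overlap, and Pros1 was higher by 1.19 ± 0.12 (log2, SE; adjusted p = 1.32e-05), or 2.28-fold. Mertk, a kinase receptor that drives uptake through Gas6 and protein S, read 7.53 on both chow arrays and 7.86 and 8.21 on the high-fat arrays. It was higher by 0.51 ± 0.11 (adjusted p = 0.00798), with the high-fat replicates further apart than the chow ones. The Mertk call was lost without chow replicate 2 (adjusted p = 0.054) or high-fat replicate 2 (0.068). Axl, the related kinase, differed by 0.37 ± 0.12 (adjusted p = 0.0489), a call that was lost when any of 9 single arrays was left out (up to 0.277) or after quantile normalization (0.060). The remaining members of the system, Tyro3, Gas6 and Mfge8, were not called, and Mfge8 differed by 0.01 ± 0.10.

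The integrin chains that join Itgav to bind Mfge8-coated cells differed more. Itgb3, the β3 chain, read 6.03 and 6.57 in chow and 7.70 and 7.94 in high-fat macrophages, a difference of 1.52 ± 0.15 (adjusted p = 5.15e-06). Itgb5, the β5 chain, read 7.80 and 7.69 against 8.89 and 8.84, a difference of 1.11 ± 0.10 (adjusted p = 2.47e-06). High-fat arrays lay above chow arrays for both chains. Itgav, their shared α chain, was not called and stayed between 8.56 and 8.87 on all 12 arrays.

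The receptors listed above as binding phosphatidylserine themselves (Timd4, Stab1, Stab2, Adgrb1 and Cd300lf) were lower where they differed. Stab1, a large scavenger receptor of tissue macrophages, read 6.57 and 6.65 in chow and 5.64 and 5.67 in high-fat macrophages, a fall of 0.95 on the log2 scale. Its replicates lay within 0.1 log2 of each other, against that fall with an SE of 0.10 (adjusted p = 1.44e-05). Timd4, a marker of resident tissue macrophages as well as a phosphatidylserine receptor, read 4.92 and 4.96 against 4.28 and 4.27. Its log2 difference was -0.67 ± 0.10 (adjusted p = 0.000233), with both groups near or below the array median. Cd300lf, a phosphatidylserine receptor with inhibitory motifs, read 7.96 and 7.93 against 7.20 and 7.57, a difference of -0.56 ± 0.15 (adjusted p = 0.0221). The Cd300lf replicates of the high-fat group differed widely, and the call was lost without either chow array (adjusted p = 0.103 and 0.099) or without high-fat replicate 1 (0.170). Stab2 and Adgrb1 were not called.

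The scavenger and lectin-like receptors went both ways. Marco, which binds bacteria and modified lipoproteins, read 7.27 and 7.05 in chow and 5.27 and 5.50 in high-fat macrophages, a difference of -1.77 ± 0.14 (adjusted p = 5.98e-07). Olr1, the lectin-like receptor for oxidised lipoprotein that also binds phosphatidylserine and aged red cells, read 8.18 and 8.11 against 6.59 and 6.80, a difference of -1.45 ± 0.12 (adjusted p = 1.54e-06). These were the 2 largest falls among the members. Cd5l, a secreted scavenger-domain protein of macrophages, read 7.09 and 7.02 against 6.56 and 6.78 (-0.39 ± 0.12, adjusted p = 0.0445). The Cd5l call was lost when any of 9 single arrays was left out (up to 0.218).

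Other receptors of the same kinds were higher. Cd93, a transmembrane receptor linked to C1q and to the clearance of dying cells, read 9.39 and 9.29 in chow and 10.11 and 10.25 in high-fat macrophages (0.84 ± 0.10, adjusted p = 3.38e-05). Lrp1, an endocytic receptor for calreticulin-marked cells, read 9.83 and 9.98 against 10.34 and 10.60 (0.57 ± 0.11, adjusted p = 0.00248). Trem2, a lipid-binding receptor that signals through Tyrobp, read 10.24 and 10.23 against 10.74 and 10.98 (0.63 ± 0.10, adjusted p = 0.000745). In all 3 genes the groups were separate. Colec12, a collectin with scavenger activity, read 6.36 and 6.51 against 7.12 and 6.82 (0.53 ± 0.13, adjusted p = 0.013). Colec12 was the least even of them, and its call was lost without chow replicate 1 (0.105) or high-fat replicate 1 (0.107). Tyrobp, the adaptor of Trem2, was not called.

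In the machinery, the Dock1 exchange factor was higher and the blood cell exchange factor Vav1 lower in high-fat macrophages. Dock1, which activates Rac together with Elmo proteins, read 6.08 and 6.07 in chow and 6.69 and 6.86 in high-fat macrophages (0.70 ± 0.11, adjusted p = 5.00e-04). Elmo2 was higher by 0.49 ± 0.12 (adjusted p = 0.0111), whereas Elmo1 was not called. Elmo2 lost its call without chow replicate 1 (0.091) or high-fat replicate 2 (0.094). Vav1, an exchange factor of blood cells for Rac, read 8.26 and 8.43 against 7.57 and 7.74, with a difference of -0.69 ± 0.11 (adjusted p = 0.000733). Rhog, the GTPase that recruits Elmo, differed by -0.48 ± 0.14 (adjusted p = 0.0319), a call lost without either chow array (0.123 and 0.134) or without high-fat replicate 1 (0.242). The GTPases Rac1, Rac2 and Cdc42 were not called.

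**Figure D3:**
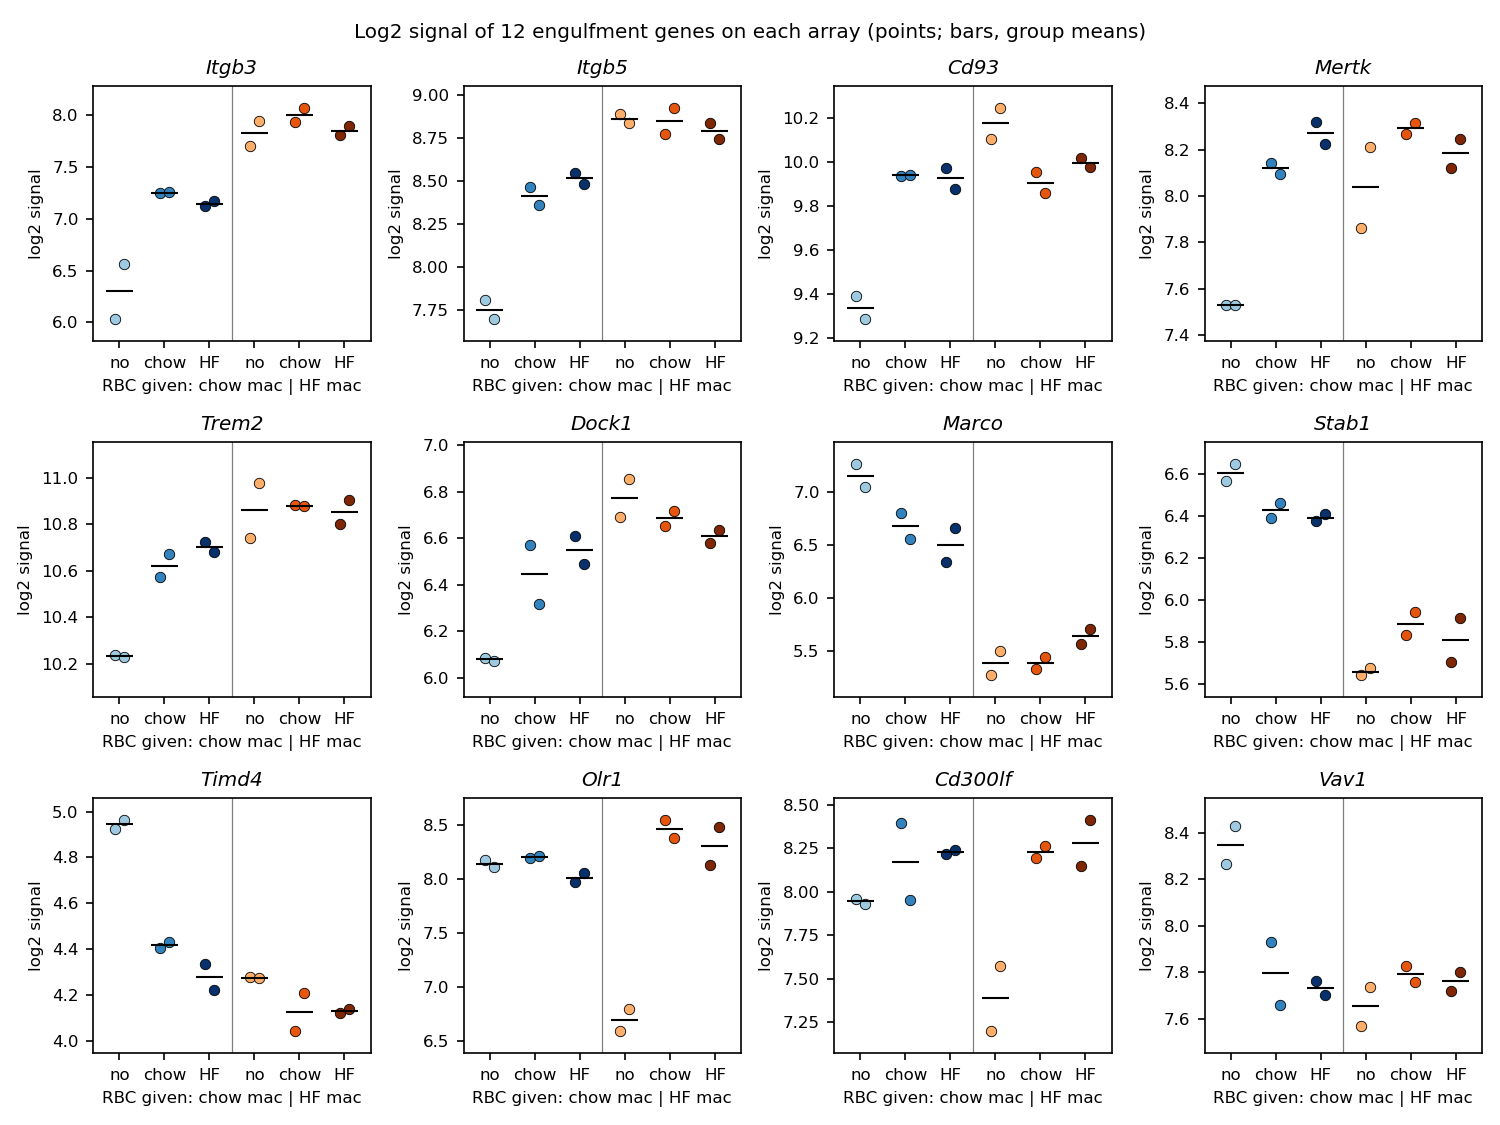
Points give the log2 signal of 12 genes on each array, 2 a group, with bars at group means; the horizontal axis gives the RBC (none, chow or high-fat donors) for chow macrophages (left, blue) and high-fat macrophages (right, orange), and each vertical axis has its own range. In chow macrophages Itgb3, Itgb5, Cd93, Mertk, Trem2 and Dock1 lie higher with RBC and Timd4 and Vav1 lower, and in high-fat macrophages Olr1 and Cd300lf lie higher with RBC.

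Markers of other cells differed between the same unexposed groups. In the B cell list 7 of 8 measured markers were lower and 1 higher in high-fat macrophages (Cd79a, -2.19 ± 0.17), and the summed signal ran from 491 to 527 in chow and from 436 to 446 in high-fat macrophages. In the resident peritoneal macrophage list 5 of 8 were lower, led by Serpinb2 (-1.16 ± 0.11) and Cxcl13 (-2.38 ± 0.29). Gata6 was higher (0.38 ± 0.12), and 2 were not called. The sums were 1014 to 1131 in chow and 549 to 586 in high-fat macrophages. In the platelet list 3 of 9 were lower (Pf4, -1.30 ± 0.10), with sums of 2221 to 2273 and 1062 to 1084. Pf4 was the brightest of these markers, at 10.92 and 10.87 in chow and 9.57 and 9.61 in high-fat macrophages. The 6 platelet markers not called included Gp9 (0.03 ± 0.19) and Clec1b (0.36 ± 0.12). Platelets also carry Itgb3, and their part in its difference was not tested. In the mesothelial and fibroblast list 3 of 11 were higher (Pdgfra, 0.78 ± 0.10, and Col1a2, 0.69 ± 0.09), with sums of 874 to 904 and 1071 to 1130. In the neutrophil list 4 of 13 were lower (Mmp9, -1.18 ± 0.12; sums 1839 to 1982 and 1561 to 1776), and in the dendritic cell list 2 of 8 (Ccl22, -2.37 ± 0.22; sums 321 to 352 and 155 to 201). In the endothelial list 1 of 9 was higher (Vwf, 0.61 ± 0.10; sums 252 to 254 and 275 to 283), in the erythroid list 1 of 9 (Bpgm, 0.75 ± 0.14; sums 209 to 214 and 218 to 227), and in the T and NK cell list none of 8. In the macrophage list 3 of 8 were lower, Fcgr1 (-1.81 ± 0.11), Adgre1 (-1.17 ± 0.11) and Csf1r (-0.81 ± 0.10), and 1 was higher, Mrc1 (0.78 ± 0.10). The 8 macrophage markers summed to 18373 to 18731 in chow and 17049 to 18266 in high-fat macrophages. No marker was at 0, since the array gives every probe set a signal, and the part of these cells in the differences of the engulfment genes was not tested.

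Exposure of chow macrophages to RBC was compared with the same macrophages left without them, over both RBC diets. The integrin chains, the kinase Mertk, Cd93, Pros1, Trem2, Dock1, Gulp1 and Axl rose, and Timd4, Vav1 and Marco fell. The folds ran from 1.86 higher (Itgb3) to 1.51 lower (Timd4). Of these 12 genes, 11 were also called between the unexposed macrophages of the 2 diets, a comparison that uses the same 2 unexposed chow arrays. Shared arrays make such an overlap likely in any set of genes, and the overlap over all genes was not counted. The median difference was 0.12 over the 38 genes and -0.03 over all genes. The count of called members fell most without chow replicate 2 of the unexposed group, and so did the count over all genes.

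Itgb3 rose from 6.03 and 6.57 to 7.25 on both arrays with chow RBC and to 7.12 and 7.17 with high-fat RBC, by 0.90 ± 0.13 (adjusted p = 0.000311). Itgb5 read 8.46 and 8.36 with chow RBC and 8.55 and 8.48 with high-fat RBC, a rise of 0.71 ± 0.09 (adjusted p = 8.39e-05). All 4 exposed arrays exceeded both unexposed arrays in each chain. Mertk read 8.14 and 8.09 with chow RBC and 8.32 and 8.22 with high-fat RBC, a rise of 0.66 ± 0.10 (adjusted p = 0.000497) over the 7.53 of both unexposed arrays. Cd93 read 9.94 on both arrays with chow RBC and 9.97 and 9.88 with high-fat RBC, a rise of 0.60 ± 0.08 (adjusted p = 0.000324). The exposed arrays of Mertk and Cd93 were again all above the unexposed ones, and the calls of these 4 genes were kept under every alternative run.

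The remaining rises were smaller. Pros1 read 6.53 and 6.63 with chow RBC and 6.73 and 6.68 with high-fat RBC (0.48 ± 0.11, adjusted p = 0.00961). Trem2 read 10.57 and 10.67, then 10.72 and 10.68 (0.43 ± 0.09, adjusted p = 0.00556). Dock1 read 6.57 and 6.32, then 6.61 and 6.49 (0.42 ± 0.09, adjusted p = 0.00916). No exposed array overlapped the unexposed arrays in these 3 genes, yet all 3 calls were lost without unexposed replicate 2 (Pros1 0.174, Trem2 0.066, Dock1 0.094), and that of Dock1 also without unexposed replicate 1 (0.058). Gulp1, an adaptor for Lrp1 and Stab receptors, rose by 0.39 ± 0.11 (adjusted p = 0.0283) and lost its call when any of 5 single arrays was left out (up to 0.201). Axl rose by 0.33 ± 0.10 (adjusted p = 0.045) and lost its call when any of 9 was left out (up to 0.281) or after quantile normalization (0.132). The bridges Gas6 (0.34 ± 0.11, adjusted p = 0.0545) and Mfge8 (0.27 ± 0.09, adjusted p = 0.069) did not pass. Gas6 passed with the animal number as a block (0.0468), with a block within each macrophage diet (0.0388), without dim genes (0.0391) or with the compared arrays alone (0.0256). Mfge8 passed without dim genes (0.0468) or with a trended robust prior (0.0116).

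Timd4 read 4.41 and 4.43 with chow RBC and 4.33 and 4.22 with high-fat RBC, against 4.92 and 4.96 without (-0.60 ± 0.08, adjusted p = 0.000291). Vav1 read 7.93 and 7.66, then 7.76 and 7.70 (-0.58 ± 0.10, adjusted p = 0.00128). Marco read 6.80 and 6.56, then 6.34 and 6.66 (-0.56 ± 0.12, adjusted p = 0.00576). Every exposed array lay below both unexposed arrays for these receptors and for the exchange factor, and Marco lost its call without unexposed replicate 1 (0.086). Stab1 read 6.39 and 6.46 with chow RBC and 6.38 and 6.41 with high-fat RBC, a difference of -0.20 ± 0.09 that did not pass (adjusted p = 0.154, or 0.0318 after quantile normalization). Olr1 read 8.20 and 8.22, then 7.97 and 8.05 (-0.03 ± 0.11, adjusted p = 0.872), which overlaps the unexposed arrays. Lrp1 read 9.85 and 9.78, then 10.02 and 9.92, and Colec12 read 6.75 and 6.67, then 6.65 and 6.79. Neither was called (Lrp1 -0.01 ± 0.09, Colec12 0.28 ± 0.11). Cd300lf (8.39 and 7.95, then 8.21 and 8.24) and Cd5l (7.15 and 7.0, then 6.86 and 6.54) were not called either.

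Some listed markers of other blood cells rose with the RBC in chow macrophages, and others did not. Bulk arrays do not show which cells the risen transcripts came from. In the neutrophil list 5 of 13 rose, led by S100a9 (5.24 ± 0.12) and Retnlg (1.70 ± 0.13). Mmp9 fell (-0.74 ± 0.10), and 7 were not called, among them Ly6g (-0.13 ± 0.15) and Elane (-0.06 ± 0.11). The summed signal went from 1839 to 1982 without RBC to 3233 to 3708 with chow RBC and 3524 to 3848 with high-fat RBC. In the platelet list 4 of 9 rose, led by Ppbp (3.82 ± 0.26), and the sums were 2783 to 3045 with chow RBC and 2335 to 2651 with high-fat RBC. The other risen platelet markers were Clec1b (1.20 ± 0.11), Gp9 (1.00 ± 0.16) and Alox12 (0.72 ± 0.16). The platelet integrin chain Itga2b, which pairs with Itgb3 in platelets, was not called (0.21 ± 0.14). It lay between 5.03 and 5.66 on all 12 arrays, not far above the array medians. In the erythroid list 2 of 9 rose (Bpgm, 0.95 ± 0.12, and Alas2, 0.86 ± 0.21), with sums of 262 to 281 and 234 to 239. In the mesothelial and fibroblast list 4 of 11 rose (Col1a2, 0.80 ± 0.08), with sums of 1139 to 1191 and 1168 to 1234, and in the B cell list 5 of 8 fell (Ms4a1, -0.91 ± 0.12), with sums of 428 to 477 and 425 to 442. In the resident peritoneal macrophage list 3 of 8 fell (Serpinb2, -0.86 ± 0.10) and 1 rose (F5, 0.45 ± 0.08), with sums of 686 to 800 and 633 to 670. In the macrophage list 2 of 8 fell, Adgre1 (-0.68 ± 0.09) and Csf1r (-0.41 ± 0.09), and 1 rose, Mrc1 (0.54 ± 0.08), and the sums were 17472 to 18217 and 18192 to 18811. In the dendritic cell list 1 of 8 rose (Ccl22, 0.62 ± 0.19; sums 417 to 470 and 341 to 430), and no marker of the endothelial or the T and NK cell list was called. The part of these transcripts in the responses of the engulfment genes was not tested.

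In high-fat macrophages exposed to RBC, Olr1 and Cd300lf rose and no other member was called. Olr1 rose 3.24-fold and Cd300lf 1.82-fold over the high-fat macrophages without RBC. The median difference over the 38 genes was -0.01, and 0.00 over all genes. The count fell without unexposed high-fat replicate 1 and rose without replicate 2, so the spread of that pair bears on it. The count over all genes moved in the same way.

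Olr1 read 8.55 and 8.38 with chow RBC and 8.13 and 8.49 with high-fat RBC, against 6.59 and 6.80 without, a rise of 1.70 ± 0.11 (adjusted p = 6.98e-07). Against the unexposed arrays chow RBC gave a rise of 1.78 ± 0.12 and high-fat RBC a rise of 1.62 ± 0.12. The exposed arrays reached the range of chow macrophages, whose 6 arrays lay between 7.97 and 8.22. Cd300lf read 8.19 and 8.26 with chow RBC and 8.15 and 8.41 with high-fat RBC, against 7.20 and 7.57 without, a rise of 0.87 ± 0.13 (adjusted p = 0.00313). All 4 exposed arrays of Cd300lf lay above both unexposed arrays, and the call was lost without unexposed replicate 1 (0.086).

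Of the genes that had risen in chow macrophages, none was called here. Itgb3 read 7.93 and 8.07 with chow RBC and 7.80 and 7.89 with high-fat RBC (0.10 ± 0.13). Itgb5 read 8.78 and 8.92, then 8.83 and 8.75 (-0.04 ± 0.09), and Pros1 7.41 and 7.38, then 7.17 and 7.39 (-0.01 ± 0.11). The exposed and unexposed arrays overlapped for the chains and for protein S. Trem2 read 10.88 on both arrays with chow RBC and 10.80 and 10.91 with high-fat RBC (0.01 ± 0.09). Dock1 read 6.65 and 6.72, then 6.58 and 6.64 (-0.13 ± 0.09), and Mertk 8.27 and 8.31, then 8.12 and 8.25 (0.20 ± 0.10). Trem2, Dock1 and Mertk gave no call, and only Cd93 among the risen genes had all exposed arrays below the unexposed ones (9.95 and 9.86, then 10.02 and 9.98), at -0.22 ± 0.08 (adjusted p = 0.326). Axl differed by 0.15 ± 0.10. Gulp1 had a difference of 0.32 ± 0.11 (adjusted p = 0.27), near its 0.39 in chow macrophages, and all 4 exposed arrays lay above the unexposed ones.

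The genes that had fallen in chow macrophages were low in high-fat macrophages with and without RBC. Timd4 read 4.04 and 4.21 with chow RBC and 4.12 and 4.14 with high-fat RBC (-0.15 ± 0.08, adjusted p = 0.575). Marco read 5.33 and 5.44, then 5.57 and 5.71 (0.13 ± 0.12), and Vav1 7.83 and 7.76, then 7.72 and 7.80 (0.12 ± 0.10). Neither receptor nor exchange factor was called. Stab1 read 5.83 and 5.94, then 5.71 and 5.91 (0.19 ± 0.09, adjusted p = 0.448), and Cd5l 7.03 and 6.97, then 7.18 and 7.16 (0.42 ± 0.10, adjusted p = 0.0846, or 0.0477 with a trended robust prior). Every exposed array exceeded the unexposed ones in both genes without a call. Lrp1 (10.35 and 10.40, then 10.20 and 10.12) and Colec12 (7.09 and 6.76, then 6.67 and 6.69) were not called either.

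Some markers of the blood cell lists rose here as well. In the neutrophil list 5 of 13 rose (S100a9, 6.28 ± 0.12), with sums of 1561 to 1776 without RBC, 2847 to 3107 with chow RBC and 4506 to 4731 with high-fat RBC. In the platelet list 6 of 9 rose (Ppbp, 5.06 ± 0.26). The sums went from 1062 to 1084 without RBC to 2031 to 2163 with chow RBC and 1538 to 1906 with high-fat RBC. In the erythroid list 1 of 9 rose (Alas2, 1.31 ± 0.21), with sums of 218 to 227, 284 to 381 and 231 to 254. In the resident peritoneal macrophage list 2 of 8 rose (F5, 0.51 ± 0.08, and Serpinb2, 0.49 ± 0.10), with sums of 601 to 663 and 656 to 674 after exposure. In the macrophage list 1 of 8 rose (Fcgr1, 0.84 ± 0.09), with sums of 17774 to 18255 and 17844 to 18402. In the mesothelial and fibroblast list 1 of 11 fell (Pdgfra, -0.42 ± 0.09), and no marker of the B cell, T and NK cell, dendritic cell or endothelial list was called. Their part in the rises of Olr1 and Cd300lf was not tested.

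The response to RBC was then compared between the macrophages of the 2 diets by an interaction term, which takes the chow macrophages' response from that of the high-fat macrophages. It was called for 9 members, 5 with a positive and 4 with a negative term (23.7%, against 5.67% of all genes, 2.57% positive and 3.1% negative). Olr1, Vav1, Marco, Cd5l and Timd4 had the positive terms, and Cd93, Itgb3, Itgb5 and Dock1 the negative ones. The count fell without either array of the unexposed chow macrophages, and so did the count over all genes.

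Olr1 had the largest term at 1.73 ± 0.15 (adjusted p = 1.05e-05), since it rose in high-fat macrophages and stayed level in chow macrophages. For Vav1 the term was 0.71 ± 0.14 (adjusted p = 0.00743) and for Marco 0.69 ± 0.17 (adjusted p = 0.0254). In both genes the term comes from a fall in chow macrophages that was not called in high-fat macrophages. Cd5l (0.58 ± 0.15, adjusted p = 0.031) and Timd4 (0.45 ± 0.12, adjusted p = 0.0384) complete the positive terms. The call of Vav1 was lost without unexposed chow replicate 2 (0.063), that of Marco when any of 6 arrays was left out (up to 0.125), that of Cd5l with any of 9 (up to 0.115) and that of Timd4 with any of 11 (up to 0.160).

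Cd93 had a term of -0.82 ± 0.12 (adjusted p = 0.000789), Itgb3 of -0.80 ± 0.18 (adjusted p = 0.0167), Itgb5 of -0.75 ± 0.12 (adjusted p = 0.00178) and Dock1 of -0.55 ± 0.13 (adjusted p = 0.0269). These receptors and the Rac exchange factor rose in chow macrophages from a low unexposed level. The Itgb3 call was lost without replicate 1 of the unexposed chow macrophages (0.077) or high-fat replicate 2 without RBC (0.069), and that of Dock1 when any of 6 arrays was left out (up to 0.113). Differences in response did not pass for Mertk (-0.46 ± 0.14, adjusted p = 0.0751), Pros1 (-0.49 ± 0.15, adjusted p = 0.0839), Trem2 (-0.42 ± 0.13, adjusted p = 0.0698), Stab1 (0.39 ± 0.12, adjusted p = 0.0935) or Cd300lf (0.61 ± 0.18, adjusted p = 0.0733). Several of these terms passed under another setting. That of Cd300lf passed with a block within each macrophage diet (0.0386), with quantile normalization (0.0333) or with a trended robust prior (0.0354). Quantile normalization and the trended prior also passed Mertk (0.0378 and 0.0382) and Trem2 (0.0275 and 0.0111), removal of dim genes passed Trem2 (0.0445), and quantile normalization passed Stab1 (0.0279). The Pros1 term passed without unexposed high-fat replicate 1 (0.0248). The calls for these 5 terms thus depend on the setting.

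**Figure D4:**
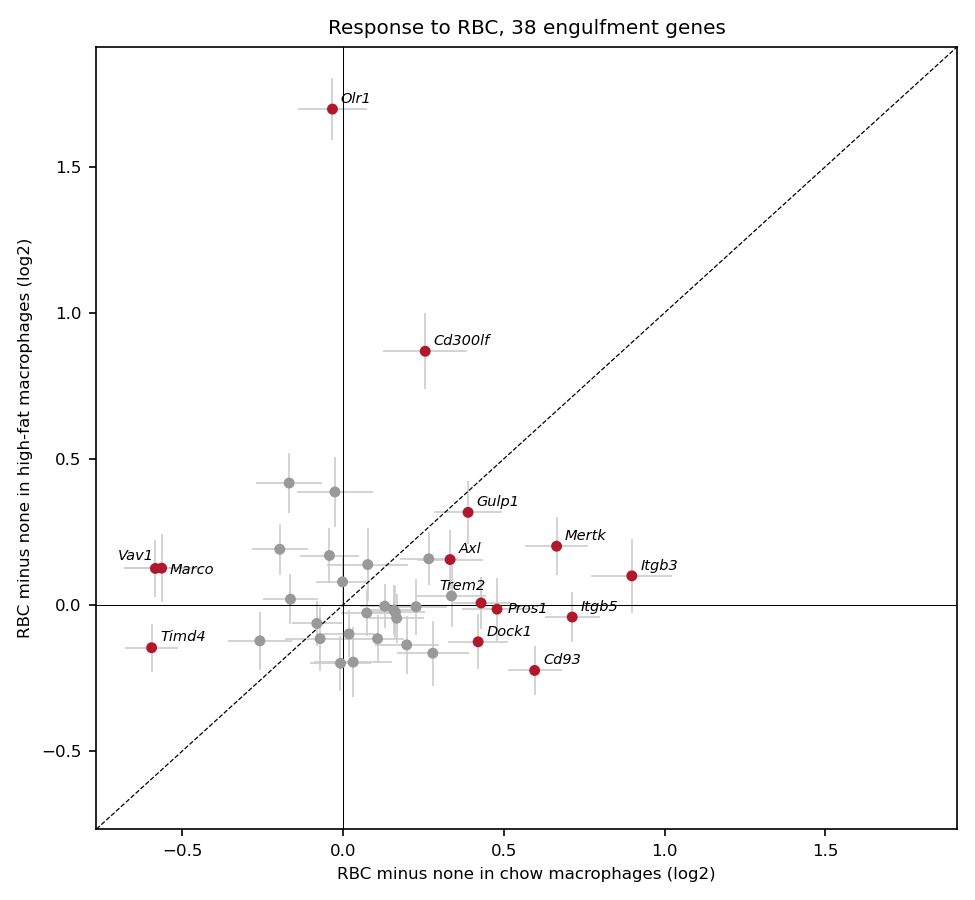
Each point is 1 of the 38 genes, with its log2 difference between RBC and none in chow macrophages (horizontal) and in high-fat macrophages (vertical); error bars are 1 SE, named red points were called in at least 1 of these comparisons, grey points in neither, and the dashed line marks equal responses. Olr1 and Cd300lf lie near the top at 1.70 and 0.87, and Itgb3, Itgb5, Mertk and Cd93 lie to the right at 0.60 to 0.90, between -0.22 and 0.20 on the vertical axis.

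With RBC present, fewer members differed between high-fat and chow macrophages. Itgb3, Pros1, Lrp1 and Itgb5 were still higher and Marco and Stab1 still lower in high-fat macrophages, and all 6 had been called without RBC as well. This comparison uses 8 exposed arrays and shares none with that between unexposed macrophages. All 19 members called without RBC had a smaller absolute gap with them, and 29 of all 38 members did. Among all genes the same held for 97.1% of the 2780 called without RBC and for 68.3% of all, and genes chosen for a large gap in the first comparison will tend to have a smaller one in the second. Of the 19, 15 kept their sign, against 79.1% of the 2780.

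Marco kept the widest gap, -1.08 ± 0.10 (adjusted p = 8.11e-06, 2.12-fold lower), with exposed chow arrays between 6.34 and 6.80 and exposed high-fat arrays between 5.33 and 5.71. Stab1 was lower by 0.56 on the log2 scale (-0.56 ± 0.07, adjusted p = 0.000228). Itgb3 was higher by 0.73 ± 0.10 (adjusted p = 0.000657) and Pros1 by 0.70 ± 0.09 (adjusted p = 0.000231). The exposed arrays of the 2 diets did not overlap for the scavenger receptors, the β3 chain or protein S. Itgb5 was higher by 0.36 ± 0.07 (adjusted p = 0.00729) and Lrp1 by 0.37 ± 0.08 (adjusted p = 0.0101), and Lrp1 lost its call without chow macrophages with high-fat RBC replicate 2 (0.060). Olr1 had turned to 0.28 ± 0.09 (adjusted p = 0.0964, or 0.0304 after quantile normalization), where it had been the second-largest fall without RBC. The gaps of Cd93 (0.02 ± 0.07), Mertk (0.04 ± 0.08), Vav1 (0.01 ± 0.08) and Cd300lf (0.05 ± 0.11) lay within 1 SE of 0. Those of Trem2 (0.20 ± 0.07, adjusted p = 0.15, or 0.0364 with a trended robust prior), Dock1 (0.15 ± 0.08, adjusted p = 0.369) and Timd4 (-0.22 ± 0.07, adjusted p = 0.0907) did not pass.

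Markers of other cells differed here too, some by more than without RBC (Ccl22, Ccr7, Vwf and Mmp8). In the resident peritoneal macrophage list 4 of 8 were lower in exposed high-fat macrophages (Cxcl13, -1.11 ± 0.21), in the B cell list 3 of 8 with 1 higher (Cd79b, -0.99 ± 0.09), in the platelet list 1 of 9 (Pf4, -1.06 ± 0.07) and in the neutrophil list 2 of 13 (Mmp8, -1.10 ± 0.10). In the mesothelial and fibroblast list 2 of 11 were lower (Wt1, -0.33 ± 0.07) and in the dendritic cell list 2 of 8 (Ccl22, -2.93 ± 0.15). In the endothelial list 1 of 9 was higher (Vwf, 0.84 ± 0.07), and the macrophage list had 2 of 8 lower (Fcgr1, -1.24 ± 0.07, and Adgre1, -0.45 ± 0.08). Their part in the 6 remaining gaps was not tested.

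**Figure D5:**
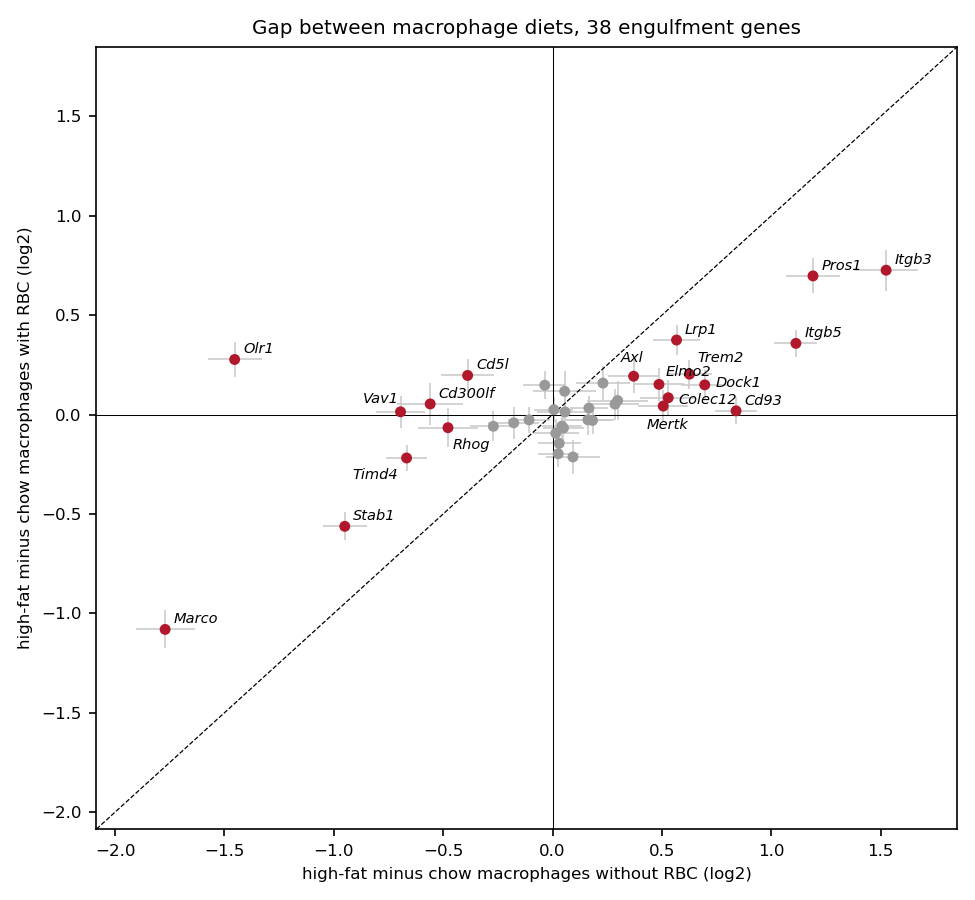
Each point is 1 of the 38 genes, with its log2 difference between high-fat and chow macrophages without RBC (horizontal) and with RBC (vertical); error bars are 1 SE, named red points were called in at least 1 of the 2 comparisons, grey points in neither, and the dashed line marks equal gaps. Most named genes lie nearer to 0 on the vertical axis, with Marco (-1.77 without and -1.08 with RBC) and Itgb3 (1.52 and 0.73) at the ends and Olr1 crossing 0 (-1.45 and 0.28).

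The diet of the RBC donors was compared over macrophages of both diets. No member was called by limma, where 0.01% of all genes (2 genes) were, and at an unadjusted p below 0.05 there was 1 member and 629 genes overall. The differences of the members ran from -0.17 to 0.15, and every 95% interval lay within 0.5 log2 of 0, from -0.36 for Olr1 to 0.35 for Megf10. Within chow macrophages the intervals ran from -0.63 (Cd5l) to 0.48 (Gas6), and within high-fat macrophages from -0.52 (Colec12) to 0.54 (Marco). The interaction of the 2 diets also gave no called member and no called gene (0% of all genes), with 3 members and 718 genes at an unadjusted p below 0.05. Its intervals were wider, from -0.70 (Gas6) to 0.90 (Cd5l), and for 12 members they passed 0.5 log2. With 2 arrays a group, interaction terms beyond 0.5 log2 are thus not excluded for these 12 members, whereas the intervals of the other 26 stayed within it.

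The 18 members called in none of the 7 comparisons include part of the machinery. Its other members, Dock1, Elmo2, Gulp1, Vav1 and Rhog, were called in some comparison. Among the GTPases, Rac1 lay between 10.23 and 10.37 on all 12 arrays, Rac2 between 9.84 and 10.34 and Cdc42 between 10.70 and 11.04. The adaptors Elmo1 (7.83 to 8.06) and Crk (8.03 to 8.31) and the actin regulator Was (7.41 to 7.63) varied as little. Sirpa, the receptor of the restraining signal, stayed between 11.36 and 11.51, and Cd47, its ligand, between 9.96 and 10.30. The Trem2 adaptor Tyrobp lay between 11.80 and 11.99. Thus the counter-receptors Sirpa and Cd47 spanned 0.15 and 0.34 log2 over all groups, against 2.03 for Itgb3. The bridges Mfge8 (11.14 to 11.55) and Gas6 (5.54 to 6.08), the phosphatidylserine-binding annexin Anxa1 (10.97 to 11.42) and the shared integrin chain Itgav (8.56 to 8.87) likewise gave no call. The scramblase Xkr8, which exposes phosphatidylserine, lay between 5.29 and 5.74. Tyro3 (4.55 to 4.84), Stab2 (4.42 to 4.85), Adgrb1 (4.55 to 5.09) and the engulfment receptor Megf10 (3.96 to 4.58) lay around or below the array medians, where a change would be harder to detect. In the 5 comparisons of macrophage diet and RBC, the differences of the 18 ran from -0.31 to 0.34, both in Gas6. Of the 18, 5 were called under at least 1 alternative, namely Anxa1, Gas6, Megf10, Mfge8 and Tyrobp.

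Other genes of uptake were described by lists of related receptors, signalling genes, find-me receptors and regulators. Of 30 other receptors and bridging molecules, 4 were higher and 9 lower in high-fat macrophages without RBC. The lectin Siglece (-2.53 ± 0.13), the Fc receptor Fcgr1 (-1.81 ± 0.11), the lipopolysaccharide co-receptor Cd14 (-1.82 ± 0.14) and the complement bridge C1qa (-1.98 ± 0.17) had the smallest p-values. RBC raised 5 and lowered 3 of the 30 in chow macrophages, led by the bridge Thbs1 (1.76 ± 0.09), Siglece (-1.50 ± 0.11), the lectin Clec7a (0.65 ± 0.09) and Fcgr3 (0.60 ± 0.09). In high-fat macrophages RBC raised 6 and lowered none, led by Thbs1 (1.33 ± 0.09), Cd14 (1.41 ± 0.12), the transglutaminase Tgm2 (1.24 ± 0.13) and Fcgr1 (0.84 ± 0.09). Thbs1, also a platelet protein, thus rose in macrophages of both diets. With RBC, 2 of the 30 were higher and 6 lower in high-fat macrophages, with Fcgr1 (-1.24 ± 0.07), C1qc (-0.83 ± 0.07), Itgax (0.82 ± 0.08) and C1qa (-1.12 ± 0.12) first.

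Of 30 measured signalling and actin genes, 2 were higher and 6 lower in unexposed high-fat macrophages. Dock2, the exchange factor of blood cells, was higher (0.97 ± 0.10), and the kinases Src (-1.04 ± 0.12) and Fgr (-0.98 ± 0.16) and the phosphatase Ptpn6 (-0.51 ± 0.10) were lower. RBC raised 1 (Dock2, 0.41 ± 0.08) and lowered 4 in chow macrophages, among them Fgr (-0.74 ± 0.14) and Src (-0.55 ± 0.11), and changed none by the test in high-fat macrophages. With RBC, Dock2 was higher (0.41 ± 0.07) and Vav3 lower (-0.54 ± 0.08) in high-fat macrophages. Of 10 measured genes of phosphatidylserine exposure and find-me sensing, 4 were lower in unexposed high-fat macrophages: Gpr132 (-1.85 ± 0.11), S1pr1 (-1.32 ± 0.11), Cx3cr1 (-1.37 ± 0.14) and P2ry2 (-0.53 ± 0.13), receptors for lipids, chemokine and nucleotides released by dying cells. RBC lowered Gpr132 (-1.25 ± 0.10) and P2ry2 (-0.37 ± 0.11) and raised S1pr1 (0.67 ± 0.10) in chow macrophages, and raised S1pr1 (0.90 ± 0.10) in high-fat macrophages. With RBC, 3 of the 10 were lower in high-fat macrophages, S1pr1 (-1.09 ± 0.08), Cx3cr1 (-0.63 ± 0.10) and Gpr132 (-0.34 ± 0.08).

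Of 8 measured regulators, 1 was higher and 4 lower in unexposed high-fat macrophages. The liver X receptor gene Nr1h3 (-0.71 ± 0.10), which drives Mertk transcription in macrophages, the red pulp factor Spic (-1.20 ± 0.18), Nr4a1 (-0.78 ± 0.13) and the protease Adam17 (-0.65 ± 0.14), which sheds Mertk from the surface, were the lower ones. RBC lowered Adam17 (-0.72 ± 0.12), Nr1h3 (-0.36 ± 0.09) and Spic (-0.55 ± 0.15) and raised Nr4a1 (0.46 ± 0.12) in chow macrophages, and raised Nr4a1 (0.78 ± 0.12) in high-fat macrophages. Mertk was higher where Nr1h3 was lower in both comparisons in which Mertk was called, and these share the unexposed chow arrays. Whether Nr1h3 or Adam17 had a part in the Mertk differences was not tested. With RBC, Nr4a1 (-0.47 ± 0.09) and Spic (-0.48 ± 0.13) were lower and Ppard (0.31 ± 0.08) higher in high-fat macrophages. The diet of the RBC donors changed no gene of these 4 lists by the test.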

How the data were processed

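The authors deposited log2 values of 12 Affymetrix Mouse Gene ST arrays. The log2 scale was read from the values, and the background correction, summarization and normalization are not given in the sources used here. Per the labels' protocols, RNA was extracted with RNeasy and amplified with WTA-Ovation FFPE V2. Of 35557 probe sets, 23410 were listed in the platform annotation, 21789 with 1 symbol and 1621 with several, which were left out. For each of 19938 genes, 999 of them with several probe sets, the set with the highest mean was kept. limma 3.58.1 in R 4.3.3 fitted 1 mean per group to all 12 arrays (lmFit, eBayes; 6 residual and 7.69 prior degrees of freedom), with Benjamini-Hochberg adjustment over all genes and a threshold of 0.05. The method was tested on simulated data.

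The responses to RBC average both RBC diets. The members and lists were chosen with earlier results of these data known. By rule, values on every array are given for 16 members. These were called in at least 1 of 7 comparisons with an absolute log2 difference of at least 0.5. Other pathway genes are named up to 4 a list by smallest p. Cell markers are named up to 2 a list, with more in the macrophage, resident peritoneal macrophage, neutrophil and platelet lists. The number of arrays limits the precision. Genes called with so few arrays tend to have groups that do not overlap. Remarks on overlap therefore describe the values and are no support beside the call. Summed marker signals are sums of the unlogged values. Alternatives were quantile normalization, removal of dim genes, a trended robust prior, the animal number as a replicate block, averaging probe sets of 1 gene, a fit of the compared arrays only, and leaving out each array.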

Additional observations from a re-analysis of the deposited data

Results flagged for a closer look

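The response to RBC differed between macrophages of the 2 diets for 9 engulfment genes by the interaction term in limma. The term is the log2 response in high-fat macrophages minus that in chow macrophages, over 4 exposed and 2 unexposed arrays of each diet. Positive terms were found for Olr1 (1.73), Vav1 (0.71), Marco (0.69), Cd5l (0.58) and Timd4 (0.45). Negative terms were found for Cd93 (-0.82), Itgb3 (-0.80), Itgb5 (-0.75) and Dock1 (-0.55). In Olr1 the response was in high-fat macrophages, and in Cd93, Itgb3, Itgb5, Dock1, Vav1, Marco and Timd4 the called response was in chow macrophages. Cd5l was called in neither diet alone (-0.17 in chow and 0.42 in high-fat macrophages). The terms of Olr1, Cd93 and Itgb5 were called under every alternative run.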

How the results depend on the processing

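Of 48 called member results, 27 were called under every alternative and 21 were lost under at least 1, nearly always when a single array was left out. None reversed. Other settings ended 6 distinct calls: Axl after quantile normalization without RBC (0.060) and for RBC in chow macrophages (0.132); Axl (0.12), Elmo2 (0.059), Cd5l (0.097) and Rhog (0.083) without RBC when only the compared arrays were fitted; and the Timd4 interaction with a trended robust prior (0.066) or the animal number as a block (0.050). With 1 array left out, the count of members called for RBC against none ran from 7 to 14 in chow macrophages and from 1 to 4 in high-fat macrophages, and for the difference between these responses from 4 to 10. It ran from 13 to 19 for the gap between macrophage diets without RBC, from 5 to 7 for the gap with RBC, and stayed 0 for the RBC diet and its interaction. A lone remaining array of a group is assumed to vary like the other groups. The counts over all genes also changed between these fits, so the changes are not particular to the members. The other alternatives kept each count within 1.5 times its main value. Fitting the compared arrays only gave no value for the difference between the responses to RBC, which uses all arrays.

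Whether same-numbered arrays came from the same animals could not be decided, since each group has only 2 arrays. Between groups of the same macrophage diet, the deviations of same-numbered arrays correlated at -0.077 to 0.344. The highest value was between high-fat macrophages without RBC and those with high-fat RBC. Between groups of different macrophage diets, which cannot share macrophage donors, the correlations were -0.226 to 0.067. Pairs of these groups whose RBC came from donors of the same diet may still share RBC donors. Their values were 0.045 for chow donors and 0.067 for high-fat donors. The range is therefore no reference free of shared animals. With the animal number as a replicate block, 13 members were called for RBC in chow macrophages, 2 in high-fat macrophages, 8 for the difference between these responses, 19 and 6 for the diet gaps without and with RBC, and 0 for the RBC diet and its interaction. With the number as a block within each macrophage diet, which cannot estimate the diet gaps, the first 3 counts were 13, 2 and 10. The added call for RBC in chow macrophages was Gas6 under both blocks, the block over all groups lost the Timd4 interaction, and the block within diets added that of Cd300lf.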
